A study of Mus musculus with 9 samples.

Results

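The genes described here are 32 mouse genes of cholesterol synthesis and sterol regulation. They were chosen by name for what their products do, with earlier results of these data known. They run from the first enzymes that join acetyl-CoA units to the proteins that sense and move sterols. They are 32 of the 23358 entries in the count table. Enzymes of synthesis make up 20 of them, of which 8 act between acetyl-CoA and the isoprenoid diphosphates and 12 act from squalene through the sterol rings. A further 7 belong to sterol sensing and 5 to sterol transport or storage. By symbol 31 were found, and Msmo1 was found under its older symbol Sc4mol. All 32 passed the filter on low counts.

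The RNA came from cultured marrow mesenchymal stem cells (stromal cells able to form bone and fat) of adult C57BL/6 mice, used between passage 4 and passage 10. Each of the 3 groups has 3 libraries, called biological replicates in the labels, which do not say whether they came from separate animals; p-values measure the spread between these cultures. All groups were transfected with an siRNA and kept in osteogenic medium with ascorbic acid and beta-glycerophosphate until lysis on day 4. The siCTL group received a non-targeting siRNA alone. The GSK126 group received the non-targeting siRNA and GSK126, a small-molecule inhibitor of Ezh2, the enzyme that methylates histone H3 at lysine 27, at 5 µM. The siBcat group received an siRNA against beta-catenin, the effector of canonical Wnt signalling encoded by Ctnnb1. Its treatment label also lists 5 µM GSK126, against its titles, its source names, the design text and the names of the count columns, none of which give it the inhibitor; those were followed. Both treatments are compared with the same siCTL libraries, so the 2 comparisons share their controls, and siBcat was also compared with GSK126 directly.

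Cells build cholesterol from acetyl-CoA by way of mevalonate and squalene. When sterols in the endoplasmic reticulum are scarce, Scap carries the precursors of the SREBP transcription factors to the Golgi, where proteases release the active factor, which raises transcription of the synthesis enzymes; when sterols are plentiful, Insig proteins hold Scap back. Oxysterols that accumulate with excess cholesterol activate Lxr nuclear receptors, which raise the export pump Abca1 and Srebf1. Stromal cells use the pathway for membranes and, through its isoprenoid branch, for the lipid anchors of small GTPases.

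SREBP factors act through sterol elements in promoters, commonly beside sites of NF-Y and Sp1, so the promoters of the members were searched for the letters of each. RefSeq promoters of GRCm38.p6 (250 bases before to 50 bases after a transcription start) were at hand for 27 of the 32 genes, 35 promoters in all, since some genes have several starts. None was at hand for Fdft1, Fdps, Npc1, Sqle and Stard4, which were not searched. The 6 printed here belong to an early enzyme of the mevalonate route whose promoter matched the sterol element (Hmgcs1), to mevalonate kinase, whose promoter holds the most NF-Y boxes of the 6 (Mvk), to both sterol ring enzymes with the smallest adjusted p after beta-catenin knockdown (Hsd17b7 and Cyp51), to the synthesis member that fell with it (Lbr), and to the cholesterol pump with opposite directions in the 2 treatments (Abca1). They were picked with these results known. Each is written 5′ to 3′ in the direction of transcription, and capitals mark the sterol element (TCACNCCAC) and the NF-Y box (CCAAT), on either strand.
Hmgcs1 promoter, chr13:119690101-119690400, plus strand: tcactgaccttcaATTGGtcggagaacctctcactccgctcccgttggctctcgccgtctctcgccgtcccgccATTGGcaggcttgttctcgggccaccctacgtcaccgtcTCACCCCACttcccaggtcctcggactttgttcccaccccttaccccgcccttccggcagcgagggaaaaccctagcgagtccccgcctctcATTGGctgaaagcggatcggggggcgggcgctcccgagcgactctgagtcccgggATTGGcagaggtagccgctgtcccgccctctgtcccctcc
Mvk promoter, chr5:114444019-114444318, plus strand: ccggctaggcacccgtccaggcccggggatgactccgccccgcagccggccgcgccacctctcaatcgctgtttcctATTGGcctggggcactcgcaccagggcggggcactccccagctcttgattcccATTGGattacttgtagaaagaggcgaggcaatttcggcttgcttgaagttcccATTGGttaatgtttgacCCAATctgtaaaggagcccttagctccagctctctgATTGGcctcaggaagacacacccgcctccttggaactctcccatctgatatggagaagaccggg
Hsd17b7 promoter, chr1:169969156-169969455, minus strand: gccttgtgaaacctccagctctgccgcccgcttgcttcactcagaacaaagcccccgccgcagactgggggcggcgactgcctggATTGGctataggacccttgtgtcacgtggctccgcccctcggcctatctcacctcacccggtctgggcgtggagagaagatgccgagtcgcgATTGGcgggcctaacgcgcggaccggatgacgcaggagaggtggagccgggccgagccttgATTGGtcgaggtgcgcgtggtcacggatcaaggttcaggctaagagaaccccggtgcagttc
Cyp51 promoter, chr5:4104648-4104947, minus strand: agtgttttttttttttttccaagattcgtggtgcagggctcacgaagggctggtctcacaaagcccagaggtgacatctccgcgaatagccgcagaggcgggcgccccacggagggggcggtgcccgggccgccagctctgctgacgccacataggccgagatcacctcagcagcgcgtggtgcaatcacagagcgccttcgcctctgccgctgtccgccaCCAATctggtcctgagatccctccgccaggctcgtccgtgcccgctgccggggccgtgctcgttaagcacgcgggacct
Lbr promoter, chr1:181842352-181842651, minus strand: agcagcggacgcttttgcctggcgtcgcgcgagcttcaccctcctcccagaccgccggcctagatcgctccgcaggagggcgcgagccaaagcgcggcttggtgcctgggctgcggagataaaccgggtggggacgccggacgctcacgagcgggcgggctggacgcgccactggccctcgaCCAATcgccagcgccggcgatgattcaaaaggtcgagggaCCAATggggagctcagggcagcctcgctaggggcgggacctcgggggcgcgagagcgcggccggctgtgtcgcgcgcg
Abca1 promoter, chr4:53159846-53160145, minus strand: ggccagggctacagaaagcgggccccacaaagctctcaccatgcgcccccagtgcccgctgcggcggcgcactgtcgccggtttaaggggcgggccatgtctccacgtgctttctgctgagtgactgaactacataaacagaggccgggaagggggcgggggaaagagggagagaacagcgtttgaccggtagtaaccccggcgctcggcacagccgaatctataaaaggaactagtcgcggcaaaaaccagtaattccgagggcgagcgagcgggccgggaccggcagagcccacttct

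The sterol element was found in 1 of the 35 promoters, that of Hmgcs1, a share of 2.86% beside 1.24% of all 32851 promoters in the table and 1.12% of the 11979 promoters of tested genes. It lies at -137 from the start. The NF-Y box was found in 23 of 35 member promoters, or 65.7%, belonging to 22 genes, beside 37.4% of all promoters and 38% of those of tested genes. Mvk holds 5 such boxes, Hmgcs1 holds 4, Hsd17b7 holds 3, Lbr holds 2 and Cyp51 holds 1; Abca1 holds none. The letters GGGCGG of the Sp1 box were found in 28 of 35 member promoters, or 80%, beside 35.7% of all promoters and 61.6% of those of tested genes. In the 150 bases nearest the start the NF-Y share was 54.3% beside 25.2% for tested genes, while the Sp1 share was 51.4% beside 51.7%. These are matches of letters on both strands, several promoters of 1 gene share sequence, and an absent match says only that the letters are not in that window.

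Library totals lay between 42324200 and 55898774 counts. Ctnnb1 measured 854 to 879 CPM (counts relative to the library total, scaled by TMM) in siCTL, 906 to 950 in GSK126 and 19.1 to 19.3 in siBcat, which was 44.9-fold lower than siCTL (log2 fold change -5.49, SE 0.054, edgeR adjusted p = 1.12e-15). GSK126 blocks the activity of Ezh2, so transcript levels do not check that group's label; Ezh2 measured 23.1 to 24.4 CPM in siCTL, 26 to 29.3 in GSK126 and 27.1 to 28 in siBcat. The marrow stromal markers Col1a1, Col1a2, Pdgfra, Pdgfrb, Eng, Nt5e, Ly6a and Cd44 were measured and Thy1 is listed at 0 in all 9 libraries. The list summed to 22260 to 27140 CPM in siCTL, 25710 to 28170 in GSK126 and 20870 to 23010 in siBcat. Of the 8 tested, 1 rose and 2 fell with GSK126 (12.5% and 25% beside 14.3% and 10.7% of all genes). With siBcat 2 rose and 2 fell (25% each way beside 17.7% and 17.5%). In siBcat 4 were higher and 3 lower than in GSK126 (50% and 37.5% beside 19.3% and 21.9%). Markers of macrophages and blood (7 genes) summed to 2.17 to 2.72 CPM with Ptprc and Adgre1 at 0 throughout, and with siBcat Lyz2 was higher (adjusted p = 0.00239) and Cd68 lower (adjusted p = 0.0383, lost without siCTL replicate 3 or siBcat replicate 1 or 3). With GSK126 Lyz2 was not called by edgeR, but passed as higher without siCTL replicate 2 (0.0483). It also passed by DESeq2 (log2 fold change 2.06, adjusted p = 0.0385) and by limma-voom (2.29, adjusted p = 0.0357). Markers of endothelium (5 genes, Tie1 at 0 throughout) summed to 0.382 to 0.617 CPM in siCTL, 0.427 to 0.707 in GSK126 and 1.12 to 1.36 in siBcat, where no library overlapped the other groups and Kdr, the 1 tested, was 1.52 above siCTL on the log2 scale (SE 0.32, adjusted p = 0.00285). Their part in the siBcat results was not tested. GSK126 replicate 3 stood apart: coding length, the gene length given in the count table, took 21.4% of the variance of its deviations from its group mean, beside 7.03 and 9.24% in the other GSK126 libraries and at most 0.69% in the rest. In it the shortest genes ran high and the longest ran low, and the 20 synthesis genes have a median length of 2310 bases beside 2851 for all genes tested. Where leaving it out ended or added a member's call, or moved a called value of a member by over 1.5 times, the value without it is given.

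In the siCTL group the members were all clearly expressed. Per kilobase of coding length, the siCTL means ran from 8.4 ± 0.571 CPM per kb (SD, n = 3) for Dhcr7, the last reductase of the route, to 142 ± 2.85 for Npc2, a lysosomal cholesterol carrier. Below Npc2 came Fdps at 82 ± 4.19, Sqle at 77.3 ± 2.96 and Insig1 at 70.7 ± 1.18 CPM per kb. Fdps and Sqle, neighbours in that order, did not differ beyond their spread. At the low end, the siCTL levels of Mbtps2 (9.77 ± 0.503) and Abca1 (10.4 ± 0.171 CPM per kb) also lay within their spread of each other.

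**Figure D1:**
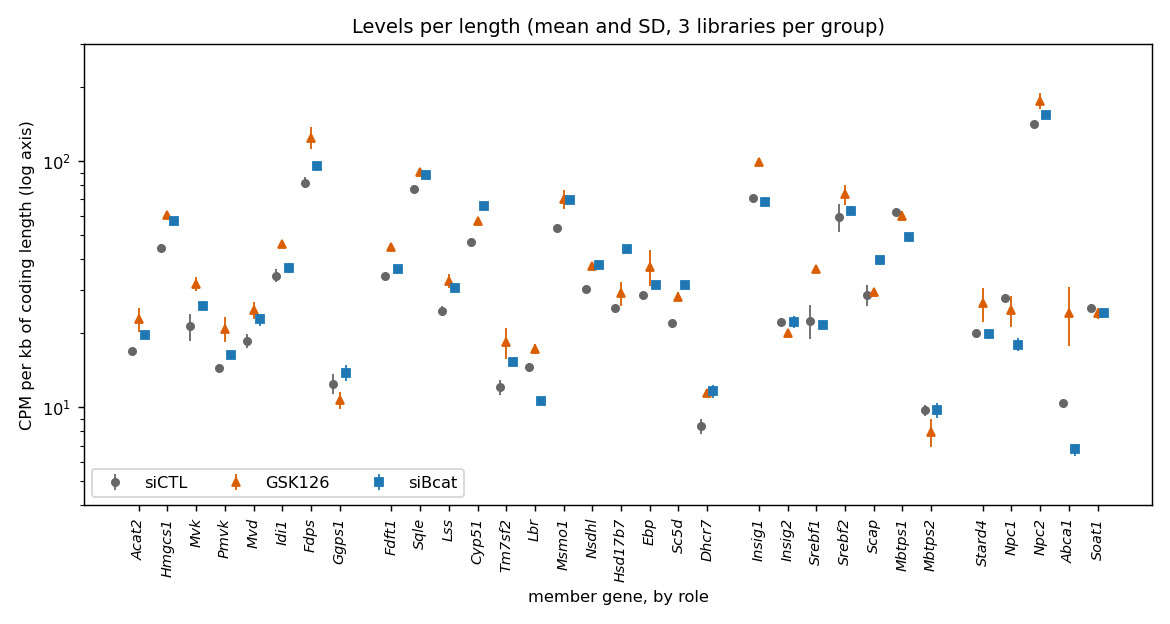
Level of each of the 32 members in CPM per kilobase of coding length on a log axis, as the mean of 3 libraries of each group with the SD as bars. Levels span from 8.4 for Dhcr7 to 142 for Npc2 in siCTL, and 24 of the 32 GSK126 means lie above the siCTL mean past the test threshold.

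Most of the pathway was modestly higher with the Ezh2 inhibitor. By edgeR's quasi-likelihood test with Benjamini-Hochberg adjustment over the 13240 genes tested, 24 of the 32 members rose with GSK126, where 14.3% of all genes tested did, and 1 fell (Mbtps2), where 10.7% of all genes did; 7 did not pass the threshold of 0.05. The median log2 fold change of the members was 0.39, beside 0.0063 for all genes tested. Among the 20 synthesis enzymes 18 rose, with a median of 0.40. None of them fell by edgeR, DESeq2 or limma-voom, and 1 was lower at an unadjusted p under 0.05.

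With knockdown of beta-catenin most synthesis enzymes were higher, while few of the other members were. Against siCTL, 15 of the 32 members rose, where 17.7% of all genes tested did, and 4 fell (Lbr, Mbtps1, Npc1 and Abca1), where 17.5% of all genes did. The members' median log2 fold change was 0.16, beside 0.0024 for all genes. Of the 20 synthesis enzymes 14 rose and 1 fell, with a median of 0.28, while of the 12 sensing and transport genes 1 rose and 3 fell. With any 1 siCTL or siBcat library left out, 10 to 12 synthesis enzymes rose, and without GSK126 replicate 3, 16 did. Of the 14 rises 9 held under each of 20 alternative fits. Each siBcat library showed the shift: the median synthesis gene lay 0.24 to 0.30 log2 above the siCTL mean in the 3 siBcat libraries and 0.33 to 0.44 above it in the 3 GSK126 libraries, against -0.02 to 0.02 in the siCTL libraries themselves. In bulk RNA, more cells of a type and more RNA per cell cannot be told apart.

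Set directly against each other, the treatments differed past the threshold in 22 of the 32 members. Of these 22 calls, 15 held under each of the 20 alternative fits. In siBcat 6 members were higher than in GSK126, or 18.8%, near the 19.3% of all genes tested. Another 16 were lower, or 50% beside 21.9% of all genes. Of the synthesis enzymes 4 (20%) were higher and 9 (45%) were lower in siBcat. Without siBcat replicate 2, the number lower was 5. With a trend on coding length removed, 4 were higher and 6 lower, and their median difference was -0.03 in place of -0.11. Of all members 7 were then higher and 12 lower. Of all calls in this comparison 46.8% were higher in siBcat, 33.4% when libraries were scaled by total alone and 60% with a trend on coding length removed. For GSK126 against siCTL that share was 57.1%, and 40.8% with the length trend removed, under which 25 members rose and 4 fell.

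**Figure D2:**
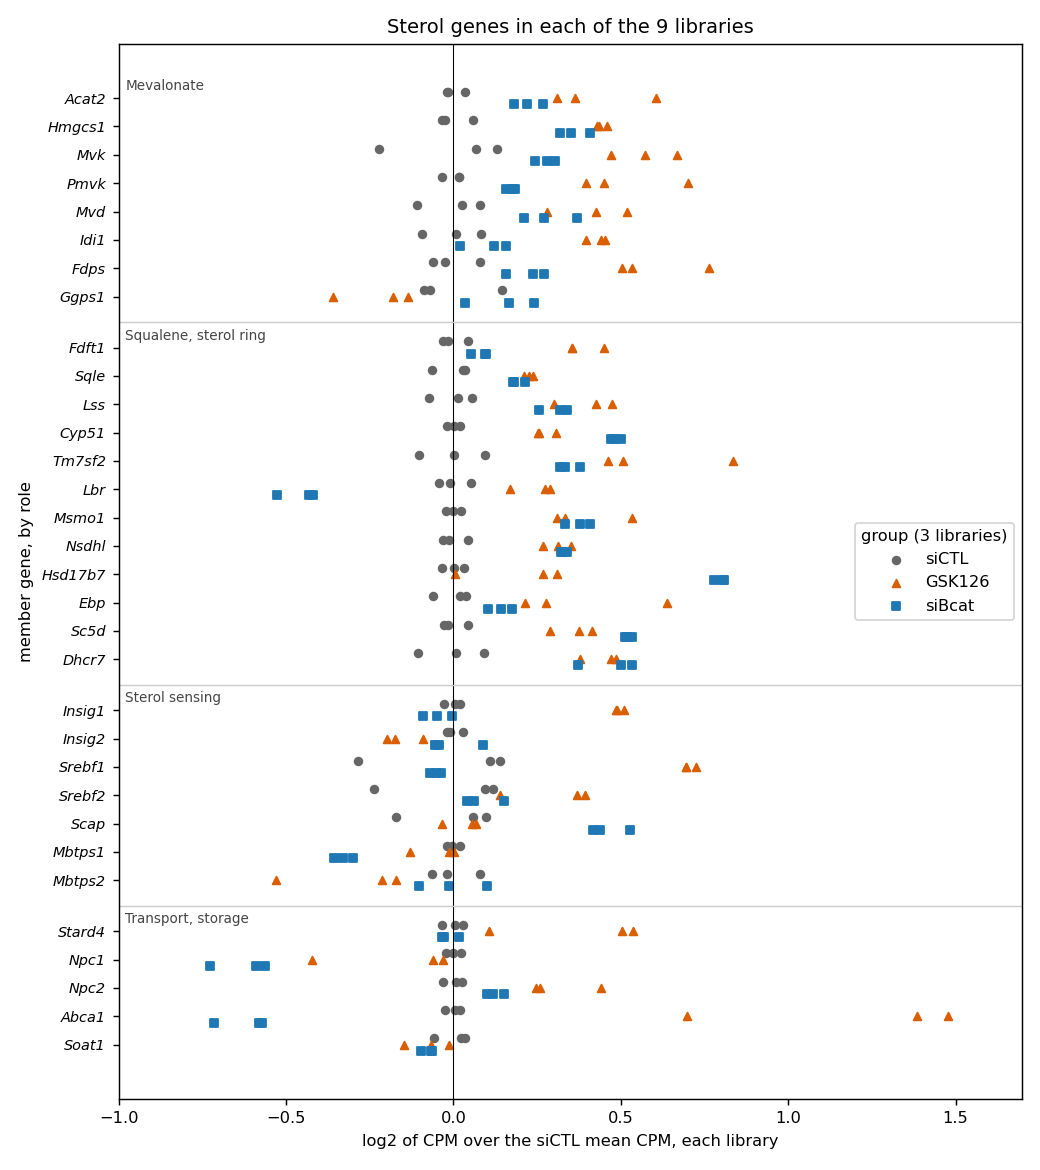
Each member's log2 ratio of CPM to the siCTL mean in each of the 9 libraries, by role (points, 3 libraries per group). In the mevalonate and sterol ring rows nearly all GSK126 and siBcat points lie right of 0, while Lbr, Npc1 and Abca1 lie left of 0 in siBcat.

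In the mevalonate route more genes rose with GSK126 than with siBcat. Of its 8 genes 7 rose with GSK126, or 87.5% beside 14.3% of all genes tested. With siBcat 5 rose, or 62.5% beside 17.7%. By edgeR no gene of the route was called lower in either; at an unadjusted p under 0.05 the count lower was 1 with GSK126 and 0 with siBcat, and by DESeq2 and limma-voom 0. Directly compared, 5 were lower in siBcat than in GSK126, or 62.5% beside 21.9% of all genes, and 1 was higher, or 12.5% beside 19.3%. Without siBcat replicate 2, 3 were lower, and with the length trend removed Acat2 was no longer called lower. The count that rose with siBcat depended on single libraries. With any 1 siCTL or siBcat library left out it was 1 to 3, and without siBcat replicate 3 Hmgcs1 alone remained, whereas without GSK126 replicate 3 it was 6.

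Hmgcs1 (chr13:119690379-119708260, plus strand) encodes the synthase that makes HMG-CoA. Of the 27 genes with a promoter searched, it alone held the sterol element, in the promoter printed above. It measured 144, 143 and 153 CPM in the siCTL libraries, 198, 202 and 197 CPM in the GSK126 libraries and 187, 194 and 183 CPM in the siBcat libraries. Both treated groups lay above every siCTL library. It rose with GSK126 (log2 fold change 0.44, SE 0.049, adjusted p = 3.43e-05) and with siBcat (log2 fold change 0.36, SE 0.049, adjusted p = 0.000101). The treatments themselves differed by -0.08 (SE 0.049, adjusted p = 0.2), past the threshold only when libraries were scaled by total alone (0.0332).

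Acat2 (chr17:12942890-12960747, minus strand), the cytosolic thiolase that joins the first acetyl-CoA units, measured 34.6, 34.7 and 35.9 CPM in the siCTL libraries, 45.1, 43.5 and 53.4 CPM in the GSK126 libraries and 39.8, 40.8 and 42.2 CPM in the siBcat libraries. GSK126 replicate 3 was the highest library and no groups overlapped. It rose with GSK126 (log2 fold change 0.43, SE 0.074, adjusted p = 0.00105). With siBcat the change was smaller (log2 fold change 0.22, SE 0.074, adjusted p = 0.033) and missed the threshold when any 1 siCTL or siBcat library was left out, with adjusted p of 0.0532 to 0.115. Acat2 was lower in siBcat than in GSK126 (log2 fold change -0.21, SE 0.074, adjusted p = 0.0381), a call lost without siCTL replicate 1 or 2, GSK126 replicate 3 or any 1 siBcat library (0.0554 to 0.126), with a difference of -0.11 without GSK126 replicate 3. That call was also lost with the length trend removed (0.108) and with only the 2 groups compared (0.0891).

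Mvk (chr5:114444269-114460591, plus strand), mevalonate kinase, measured 38.8, 37.1 and 30.4 CPM in the siCTL libraries, 52.7, 49.2 and 56.3 CPM in the GSK126 libraries and 43.8, 42 and 43.1 CPM in the siBcat libraries. The treated groups lay above siCTL without overlap, and siCTL replicate 3 was the lowest library. Mvk rose 1.49-fold with GSK126 (log2 fold change 0.57, SE 0.085, adjusted p = 0.000356). With siBcat it rose 1.21-fold (log2 fold change 0.28, SE 0.085, adjusted p = 0.0226), and the call was lost without siCTL replicate 3 (log2 fold change 0.18, adjusted p = 0.0762) or without siBcat replicate 1, 2 or 3 (0.0874, 0.0512 and 0.0645). Its level was lower in siBcat than in GSK126 (log2 fold change -0.30, SE 0.084, adjusted p = 0.013), a call lost without siBcat replicate 2 (0.0549).

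The next kinase of the route, Pmvk (chr3:89454541-89469013, plus strand), measured 22.1, 21.3 and 22.1 CPM in the siCTL libraries, 28.7, 29.8 and 35.5 CPM in the GSK126 libraries and 24.3, 24.6 and 24.8 CPM in the siBcat libraries. It rose 1.44-fold with GSK126 (log2 fold change 0.52, SE 0.077, adjusted p = 0.00037), and GSK126 replicate 3 was its highest library. With siBcat its log2 fold change was 0.17 (adjusted p = 0.109), and it passed the threshold without GSK126 replicate 3 (0.0145). Mvd (chr8:122433601-122443422, minus strand), the decarboxylase that makes isopentenyl diphosphate, measured 36.8, 35.4 and 32.3 CPM in the siCTL libraries, 46.8, 42.3 and 49.9 CPM in the GSK126 libraries and 42, 40.4 and 45 CPM in the siBcat libraries. It rose with GSK126 (log2 fold change 0.41, SE 0.075, adjusted p = 0.00164) and with siBcat (log2 fold change 0.29, SE 0.075, adjusted p = 0.0103), the second lost without siBcat replicate 3 (0.057). The GSK126 and siBcat libraries overlapped for Mvd.

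Idi1 (chr13:8885501-8892451, plus strand), the isomerase of the isopentenyl unit, measured 92.2, 99.1 and 104 CPM in the siCTL libraries, 134, 129.5 and 135 CPM in the GSK126 libraries and 99.8, 107 and 109.8 CPM in the siBcat libraries. All 3 GSK126 libraries stood above the other 6, and siBcat overlapped siCTL. It rose 1.35-fold with GSK126 (log2 fold change 0.43, SE 0.058, adjusted p = 0.000186), changed by 0.10 with siBcat (adjusted p = 0.201), and was lower in siBcat than in GSK126 (log2 fold change -0.33, SE 0.058, adjusted p = 0.000601).

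Fdps (chr3:89093588-89101959, minus strand) encodes farnesyl diphosphate synthase, at the branch between sterols and prenyl anchors. It measured 115, 118 and 127 CPM in the siCTL libraries, 173, 169.9 and 203 CPM in the GSK126 libraries and 145, 134 and 141 CPM in the siBcat libraries. The 3 groups did not overlap, and GSK126 replicate 3 was again the highest library. Fdps rose 1.52-fold with GSK126 (log2 fold change 0.61, SE 0.071, adjusted p = 5.66e-05); without GSK126 replicate 3 the log2 fold change was 0.52. With siBcat it rose 1.17-fold (log2 fold change 0.22, SE 0.071, adjusted p = 0.0267), a call lost without siCTL replicate 1 or 2 (0.0988 and 0.106) or siBcat replicate 1 or 3 (0.114 and 0.0792). Its siBcat level was below the GSK126 level (log2 fold change -0.38, SE 0.071, adjusted p = 0.000845).

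Ggps1, which adds a further isoprenoid unit to make the geranylgeranyl anchor, ran apart from the rest of the route. Its log2 fold change was -0.22 with GSK126 (SE 0.085, adjusted p = 0.0715) and 0.15 with siBcat (adjusted p = 0.191), neither past the threshold. The level in siBcat was higher than in GSK126 (log2 fold change 0.37, SE 0.084, adjusted p = 0.00344), the only member of the route with that direction. With the length trend removed the GSK126 value passed as lower (0.0145).

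**Figure D3:**
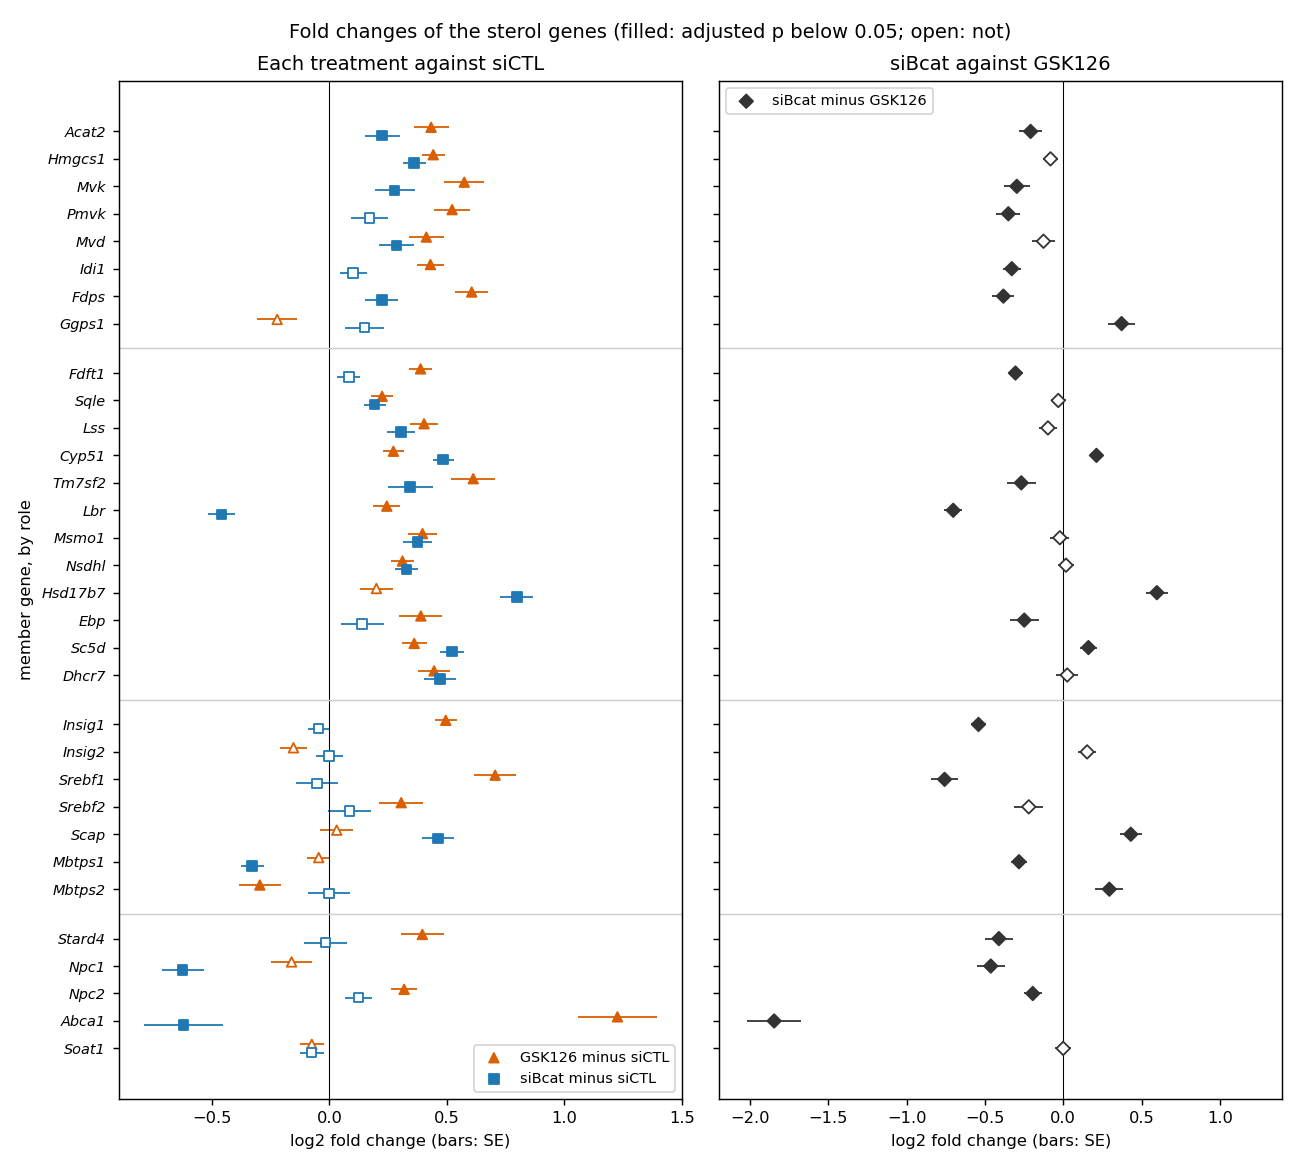
Log2 fold change of each member for GSK126 against siCTL and siBcat against siCTL, with SE as bars, and, at right, for siBcat against GSK126; filled symbols are past the adjusted p threshold of 0.05. The mevalonate genes other than Ggps1 have the larger value with GSK126, Hsd17b7, Cyp51 and Sc5d the larger value with siBcat, and Lbr and Abca1 lie on opposite sides of 0.

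From squalene onward, 11 of 12 genes rose with GSK126, or 91.7% beside 14.3% of all genes tested. With siBcat 9 of 12 rose, or 75% beside 17.7%, and Lbr fell. Directly compared, 3 genes (Hsd17b7, Cyp51 and Sc5d) were higher in siBcat, or 25% beside 19.3% of all genes. Another 4 (Fdft1, Tm7sf2, Lbr and Ebp) were lower, or 33.3% beside 21.9%. The calls of Tm7sf2 and Ebp as lower were lost without siCTL replicate 1, GSK126 replicate 3 or any 1 siBcat library, with adjusted p of 0.051 to 0.105 for Tm7sf2 and 0.0601 to 0.134 for Ebp. For Ebp siCTL replicate 2 (0.0645) and 3 (0.0596) did so too, and without GSK126 replicate 3 the difference was -0.11 for Ebp and -0.14 for Tm7sf2. Both calls were also lost with the length trend removed (0.0553 for Tm7sf2, 0.0915 for Ebp) and with only the 2 groups compared (0.071 and 0.101). Ebp lost its call by limma-voom too (0.0586), and with scaling by DESeq2 size factors (0.0534) or upper quartile (0.0539). Fdft1, squalene synthase, rose with GSK126 (log2 fold change 0.39, SE 0.050, adjusted p = 0.000124) but measured 0.08 with siBcat (adjusted p = 0.226). Sqle, the epoxidase at a rate-controlling step, rose with GSK126 (log2 fold change 0.22, SE 0.047, adjusted p = 0.00407) and siBcat (log2 fold change 0.19, SE 0.047, adjusted p = 0.00662). The treatments differed by -0.03 (adjusted p = 0.62).

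Hsd17b7 (chr1:169949535-169969241, minus strand) encodes the reductase that completes removal of the sterol C4 methyl groups, and it had the largest rise of any member with siBcat. It measured 113, 116 and 118 CPM in the siCTL libraries, 139.5, 144 and 116 CPM in the GSK126 libraries and 203, 203 and 199 CPM in the siBcat libraries. Every siBcat library lay above every other library, and GSK126 replicate 3 fell among the siCTL values while the other GSK126 libraries lay above them. The siBcat level was 1.74-fold that of siCTL (log2 fold change 0.80, SE 0.070, adjusted p = 2.51e-06) and 1.51-fold that of GSK126 (log2 fold change 0.60, SE 0.070, adjusted p = 2.16e-05). With GSK126 the change missed the threshold (log2 fold change 0.20, SE 0.070, adjusted p = 0.0526), but passed it without GSK126 replicate 3 (log2 fold change 0.29, adjusted p = 4e-06). Its adjusted p over the alternatives ran from 4e-06 to 0.189.

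Cyp51 (chr5:4081145-4104746, minus strand), the demethylase that acts on lanosterol, measured 206, 208 and 203 CPM in the siCTL libraries, 245, 245 and 254 CPM in the GSK126 libraries and 285, 291 and 287 CPM in the siBcat libraries. The order was siCTL, GSK126, siBcat, with no overlap between groups. It rose 1.21-fold with GSK126 (log2 fold change 0.27, SE 0.044, adjusted p = 0.000715) and 1.4-fold with siBcat (log2 fold change 0.48, SE 0.044, adjusted p = 3.51e-06). The siBcat level was the higher of both (log2 fold change 0.21, SE 0.044, adjusted p = 0.00198).

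Sc5d (chr9:42251595-42264256, minus strand), the desaturase near the end of the route, followed the same order. It measured 48.8, 48.4 and 50.9 CPM in the siCTL libraries, 64.1, 65.7 and 60.3 CPM in the GSK126 libraries and 70.4, 71.4 and 70.7 CPM in the siBcat libraries. It rose 1.28-fold with GSK126 (log2 fold change 0.36, SE 0.053, adjusted p = 0.000328) and 1.44-fold with siBcat (log2 fold change 0.52, SE 0.053, adjusted p = 8.67e-06). The direct difference (log2 fold change 0.16, SE 0.052, adjusted p = 0.0261) missed the threshold when GSK126 replicate 1 (0.0521) or siBcat replicate 1, 2 or 3 (0.0654, 0.0775 and 0.0694) was left out, and when libraries were scaled by total alone (0.182).

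Lbr and Tm7sf2 encode proteins with the same sterol C14 reductase activity, and with siBcat they moved in opposite directions. Lbr (chr1:181815335-181843046, minus strand), which also anchors chromatin at the inner nuclear membrane, measured 53.8, 51.5 and 50.3 CPM in the siCTL libraries, 63.3, 62.6 and 58.2 CPM in the GSK126 libraries and 38.5, 35.9 and 38.7 CPM in the siBcat libraries. Its siBcat libraries lay below and its GSK126 libraries above all siCTL libraries. With siBcat Lbr fell 1.37-fold (log2 fold change -0.46, SE 0.059, adjusted p = 6.47e-05). It rose 1.18-fold with GSK126 (log2 fold change 0.24, SE 0.058, adjusted p = 0.00903). The treatments differed 1.63-fold (log2 fold change -0.70, SE 0.059, adjusted p = 1.22e-06). Tm7sf2 (chr19:6062821-6068373, minus strand) measured 17.9, 19 and 16.6 CPM in the siCTL libraries, 25.3, 24.6 and 31.8 CPM in the GSK126 libraries and 22.5, 23.2 and 22.2 CPM in the siBcat libraries. All treated libraries exceeded those of siCTL, with GSK126 replicate 3 highest. It rose 1.53-fold with GSK126 (log2 fold change 0.61, SE 0.095, adjusted p = 0.00051) and 1.27-fold with siBcat (log2 fold change 0.34, SE 0.096, adjusted p = 0.0138), the second lost without siCTL replicate 3 (0.0535) or siBcat replicate 2 (0.0502). Per kilobase of coding length, the siCTL level was 14.6 ± 0.496 CPM per kb (SD, n = 3) for Lbr and 12.1 ± 0.828 for Tm7sf2.

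Lss (chr10:76531588-76557138, plus strand), the cyclase that folds the first sterol ring system, measured 72.9, 79.8 and 77.5 CPM in the siCTL libraries, 107, 103 and 94.5 CPM in the GSK126 libraries and 97.1, 91.7 and 95.7 CPM in the siBcat libraries. It rose with GSK126 (log2 fold change 0.40, SE 0.059, adjusted p = 0.000332) and with siBcat (log2 fold change 0.30, SE 0.059, adjusted p = 0.00148). The treated groups overlapped through GSK126 replicate 3 alone, and the direct difference was -0.10 (adjusted p = 0.204). Without that library it was -0.15 and passed as lower in siBcat (0.0103), as it did when libraries were scaled by total alone (0.0275). Dhcr7 (chr7:143823145-143848410, plus strand), which reduces the last precursor to cholesterol, measured 25.2, 22 and 23.8 CPM in the siCTL libraries, 32.8, 33.1 and 30.7 CPM in the GSK126 libraries and 34.3, 30.6 and 33.5 CPM in the siBcat libraries. Both treated groups lay above siCTL and overlapped each other: it rose 1.36-fold with GSK126 (log2 fold change 0.45, SE 0.070, adjusted p = 0.000553) and 1.39-fold with siBcat (log2 fold change 0.47, SE 0.070, adjusted p = 0.000214).

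Msmo1 and Nsdhl, which act with Hsd17b7 in the removal of the C4 methyl groups, rose in both treatments. The Msmo1 log2 fold change was 0.40 with GSK126 (SE 0.061, adjusted p = 0.00051) and 0.37 with siBcat (SE 0.061, adjusted p = 0.000449). For Nsdhl it was 0.31 with GSK126 (SE 0.049, adjusted p = 0.000539) and 0.33 with siBcat (SE 0.049, adjusted p = 0.000208). Of these 3 enzymes of 1 step, Hsd17b7 alone differed between the treatments past the threshold; the direct difference was -0.02 (SE 0.061) for Msmo1 and 0.02 (SE 0.048) for Nsdhl. Ebp, the isomerase that follows, rose with GSK126 (log2 fold change 0.39, SE 0.092, adjusted p = 0.00883; 0.24 without GSK126 replicate 3) and measured a log2 fold change of 0.14 with siBcat (adjusted p = 0.268), which passed without GSK126 replicate 3 (0.0157).

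**Figure D4:**
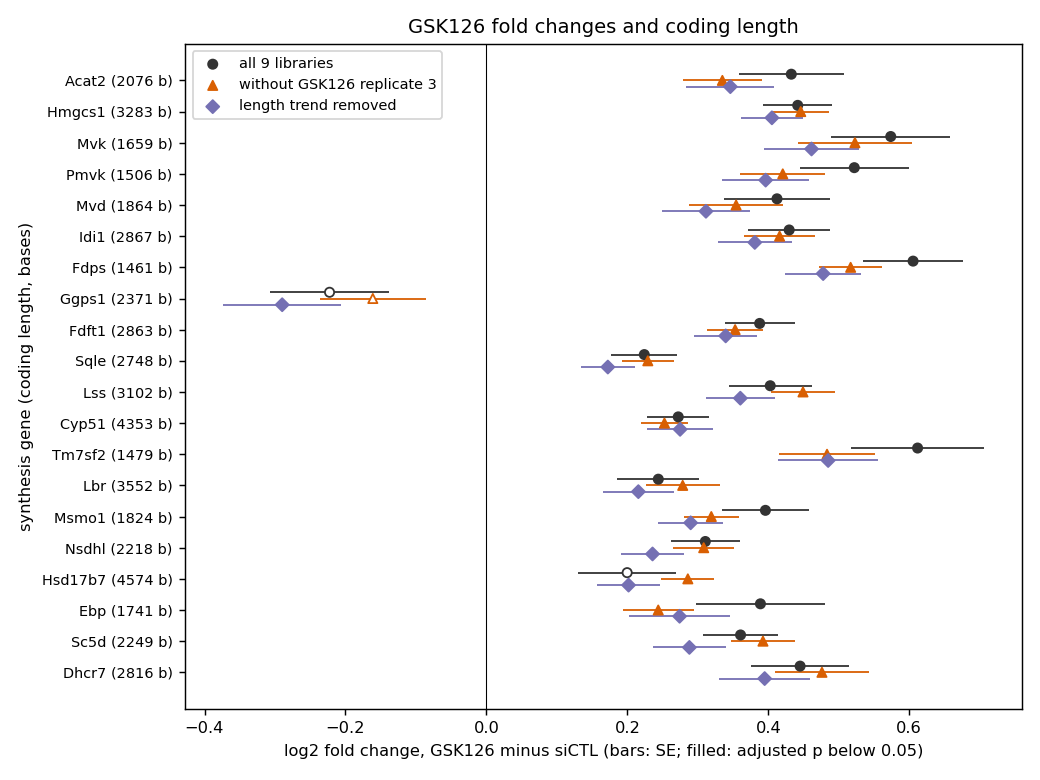
Log2 fold change of the 20 synthesis genes for GSK126 against siCTL from all 9 libraries, without GSK126 replicate 3, and with the trend on coding length removed (bars: SE; filled: adjusted p below 0.05). Values of the shortest genes such as Fdps and Tm7sf2 are smaller in the last 2 fits, and 18 genes stay to the right of 0 past the threshold in all 3.

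Because synthesis genes are on the short side, the GSK126 values were set beside fits that lessen the length effect. The median of the 20 genes was 0.40 with all libraries, 0.35 without GSK126 replicate 3 and 0.33 with the length trend removed. GSK126 replicate 3 was the highest library of its group for 11 of the 20, replicate 2 for 6 and replicate 1 for 3. All 18 GSK126 calls among the synthesis genes held under each of the 20 alternatives run.

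Among the 7 sensing genes 3 rose with GSK126 (Insig1, Srebf1 and Srebf2), or 42.9% beside 14.3% of all genes tested, and 1 fell (Mbtps2), or 14.3% beside 10.7%. Without GSK126 replicate 3, 2 rose and 2 fell. With siBcat 1 rose (Scap) and 1 fell (Mbtps1), a share of 14.3% each way that is near the 17.7% and 17.5% of all genes. The 7-gene median was 0.03 with GSK126 and -0.0022 with siBcat.

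Insig1 (chr5:28071363-28078662, plus strand), which retains Scap in the endoplasmic reticulum and is itself a target of SREBP, measured 184, 189.8 and 188 CPM in the siCTL libraries, 266, 262 and 263 CPM in the GSK126 libraries and 176, 181 and 187 CPM in the siBcat libraries. All 3 GSK126 libraries lay above the other 6, among which siCTL and siBcat overlapped. It rose 1.41-fold with GSK126 (log2 fold change 0.49, SE 0.046, adjusted p = 8.63e-06), the smallest adjusted p of any member in that comparison, and changed by -0.05 with siBcat (SE 0.046, adjusted p = 0.462). The direct difference was 1.46-fold (log2 fold change -0.54, SE 0.046, adjusted p = 1.34e-06). Insig2, its relative, did not pass the threshold in any of the 3 comparisons, with a log2 fold change of -0.15 for GSK126 (adjusted p = 0.0707). Without GSK126 replicate 3 that value passed (0.0495). The direct difference of Insig2 (log2 fold change 0.15, SE 0.058, adjusted p = 0.0513) passed without GSK126 replicate 1 (0.0407) or 3 (0.0343).

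Srebf1 (chr11:60199089-60222581, minus strand), which encodes the SREBP form that favours fatty acid genes, measured 107, 104 and 79.4 CPM in the siCTL libraries, 159.9, 156 and 157 CPM in the GSK126 libraries and 94.3, 92 and 93.2 CPM in the siBcat libraries. GSK126 libraries stood above all others, and siCTL replicate 3 lay well below the other siCTL libraries. It rose 1.63-fold with GSK126 (log2 fold change 0.71, SE 0.088, adjusted p = 0.000117). With siBcat the change was -0.05 (SE 0.088, adjusted p = 0.679); without siCTL replicate 3 it was -0.18 and passed the threshold as lower (0.0197). The level in siBcat was 1.69-fold lower than in GSK126 (log2 fold change -0.76, SE 0.088, adjusted p = 2.53e-05). Srebf2, which encodes the form that favours cholesterol genes, rose with GSK126 (log2 fold change 0.31, SE 0.093, adjusted p = 0.0324), but 9 of the 20 alternatives ended that call, with adjusted p from 0.0503 to 0.103. Among them was the omission of siCTL replicate 3 (log2 fold change 0.20, adjusted p = 0.103), of GSK126 replicate 1, 2 or 3 (0.0999, 0.0953 and 0.0571) or of siBcat replicate 1, 2 or 3 (0.0513, 0.0527 and 0.0503). With siBcat its value was 0.09 (adjusted p = 0.515).

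Scap (chr9:110333288-110384950, plus strand), the escort of the SREBP precursors, measured 128, 132 and 109 CPM in the siCTL libraries, 129, 128 and 120.3 CPM in the GSK126 libraries and 178, 167 and 165 CPM in the siBcat libraries. All siBcat libraries lay above the other 6, and GSK126 overlapped siCTL, whose replicate 3 was the lowest library. It rose 1.38-fold with siBcat (log2 fold change 0.46, SE 0.069, adjusted p = 0.000227), changed by 0.03 with GSK126 (adjusted p = 0.773), and was higher in siBcat than in GSK126 (log2 fold change 0.43, SE 0.069, adjusted p = 0.000294). The proteases that release SREBP did not share its rise. Mbtps1, the first of them, fell with siBcat (log2 fold change -0.33, SE 0.050, adjusted p = 0.000235). Its log2 fold change was -0.05 with GSK126 (adjusted p = 0.528). Mbtps2, the second, fell with GSK126 (log2 fold change -0.30, SE 0.090, adjusted p = 0.0298), a call lost without siCTL replicate 1 (0.0652) or 3 (0.111), with a log2 fold change of -0.19 without GSK126 replicate 3; it measured -0.0022 with siBcat (adjusted p = 0.991). Its siBcat level exceeded that in GSK126 (log2 fold change 0.29, SE 0.090, adjusted p = 0.0193; 0.19 without GSK126 replicate 3), a call lost without siBcat replicate 2 (0.0951) or 3 (0.052).

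Transport and storage genes rose in part with GSK126 and fell in part with siBcat. With GSK126 3 of 5 rose (Abca1, Stard4 and Npc2), or 60% beside 14.3% of all genes tested. By edgeR, DESeq2 and limma-voom none fell, also at an unadjusted p under 0.05. With siBcat Abca1 and Npc1 fell, or 40% beside 17.5% of all genes. By the same tools none rose, with 1 higher at an unadjusted p under 0.05 (Npc2). In siBcat 4 of the 5 were lower than in GSK126, or 80% beside 21.9% of all genes.

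Abca1 (chr4:53030787-53159895, minus strand), the pump that loads cholesterol onto apolipoprotein and is a known target of Lxr, had the largest change of any member with GSK126 and between the treatments. It measured 107, 105 and 108 CPM in the siCTL libraries, 278, 296 and 173 CPM in the GSK126 libraries and 71.6, 64.8 and 71.2 CPM in the siBcat libraries. No groups overlapped, although GSK126 replicate 3 lay far below the other GSK126 libraries. Abca1 rose 2.34-fold with GSK126 (log2 fold change 1.23, SE 0.17, adjusted p = 0.000695), and without GSK126 replicate 3 the log2 fold change was 1.43. It fell 1.54-fold with siBcat (log2 fold change -0.62, SE 0.17, adjusted p = 0.0173); that call was lost without siCTL replicate 3 (0.0503), without siBcat replicate 2 (0.0502) and with no filter on low counts (0.0614). Between the treatments the level differed 3.6-fold (log2 fold change -1.85, SE 0.17, adjusted p = 2.39e-05).

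Npc1, the lysosomal membrane protein that exports cholesterol taken up by endocytosis, measured 147, 142 and 144 CPM in the siCTL libraries, 138, 141 and 108 CPM in the GSK126 libraries and 96, 87.1 and 97.8 CPM in the siBcat libraries. All siBcat libraries lay below the other 6, of which GSK126 replicate 3 was the lowest. It fell 1.54-fold with siBcat (log2 fold change -0.62, SE 0.089, adjusted p = 0.000167); with GSK126 the value was -0.16 (adjusted p = 0.203). Without GSK126 replicate 3 that value was -0.05, and with the length trend removed it passed as lower (-0.15, adjusted p = 0.0435). Npc2 (chr12:84754562-84773152, minus strand), its soluble partner, measured 469.9, 464 and 452 CPM in the siCTL libraries, 553, 548 and 627 CPM in the GSK126 libraries and 513, 495 and 501 CPM in the siBcat libraries. The 3 groups did not overlap, and Npc2 rose with GSK126 (log2 fold change 0.32, SE 0.056, adjusted p = 0.00131) but missed the threshold with siBcat (log2 fold change 0.12, SE 0.056, adjusted p = 0.109), where it passed without GSK126 replicate 3 (0.00138). Npc2 was lower in siBcat than in GSK126 (log2 fold change -0.19, SE 0.056, adjusted p = 0.0141), with a difference of -0.13 without GSK126 replicate 3. That call was lost without siBcat replicate 2 (0.0582) or 3 (0.054) and with the length trend removed (0.051).

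Stard4, a cytosolic carrier that is an SREBP target, rose with GSK126 (log2 fold change 0.40, SE 0.091, adjusted p = 0.00746) and measured -0.02 with siBcat (adjusted p = 0.913). Soat1, which esterifies cholesterol for storage, did not pass in any comparison: its value was -0.08 with GSK126 (adjusted p = 0.311) and -0.08 with siBcat (adjusted p = 0.285). Soat1 and Insig2 were the members past the threshold in none of the 3 comparisons.

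**Figure D5:**
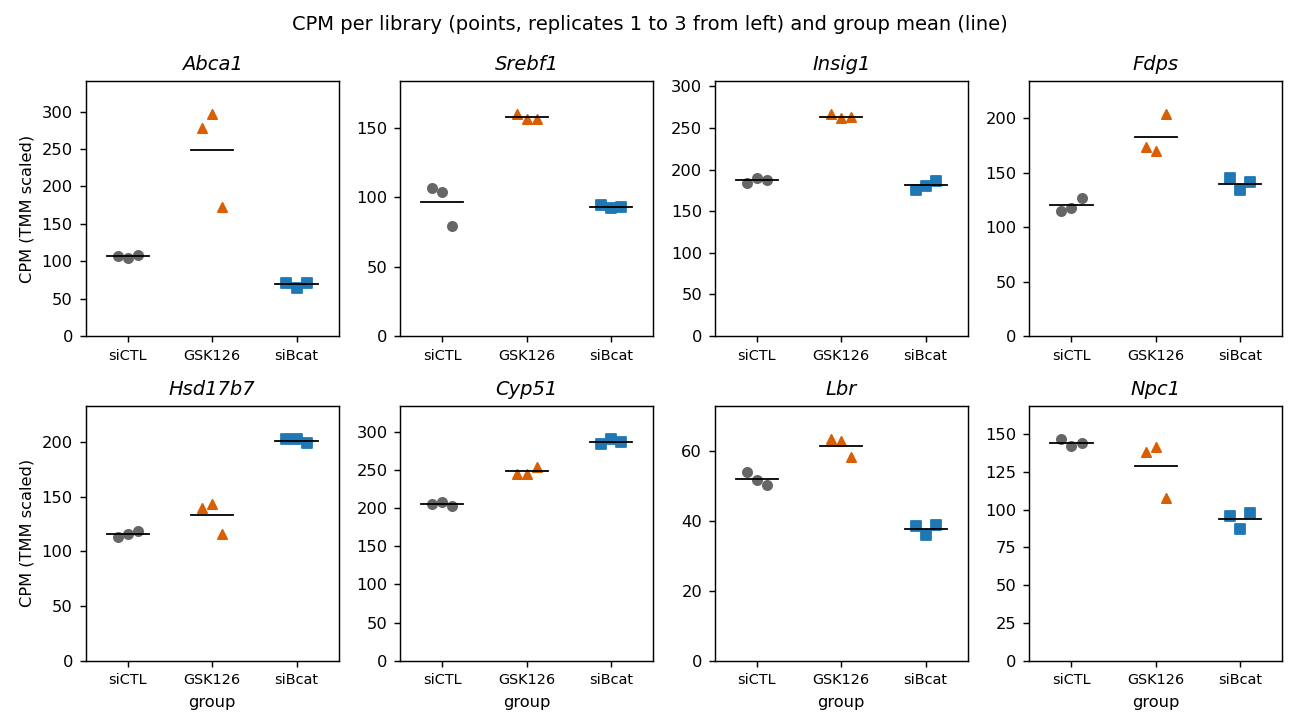
CPM in each library for the members on which the comparisons turn, 3 points per group with the mean as a line. Hsd17b7 and Cyp51 are highest in siBcat, Fdps, Insig1, Srebf1 and Abca1 are highest in GSK126, and Lbr and Npc1 are lowest in siBcat.

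Other genes around the pathway were counted from lists of textbook function. Among 8 genes of oxysterol and Lxr biology, 3 rose with GSK126, or 37.5% beside 14.3% of all genes tested. By edgeR 0 fell (1 at an unadjusted p under 0.05 and by DESeq2, 0 by limma-voom), beside 10.7% of all genes. With siBcat 2 rose and 4 fell, shares of 25% and 50% beside 17.7% and 17.5%. Abcg1, the other cholesterol exporter under Lxr control, rose with GSK126 (log2 fold change 1.20, SE 0.075, adjusted p = 3.93e-07) and, unlike Abca1, also with siBcat (log2 fold change 0.44, SE 0.075, adjusted p = 0.000625). Mylip, an Lxr target that degrades lipoprotein receptors, rose with GSK126 (log2 fold change 0.44, SE 0.053, adjusted p = 7.16e-05). With siBcat Cyp27a1, a sterol hydroxylase that makes an Lxr ligand, fell (log2 fold change -0.87, SE 0.095, adjusted p = 1.86e-05), and Cyp7b1, which breaks oxysterols down, rose (log2 fold change 0.98, SE 0.15, adjusted p = 0.000222). Of 12 fatty acid genes controlled by SREBP, 7 rose with GSK126 (9 without GSK126 replicate 3, with Fasn and Acaca), or 58.3% beside 14.3% of all genes. With siBcat 3 rose and 3 fell, a share of 25% each way beside 17.7% and 17.5% of all genes. Scd1, a desaturase, rose 2.36-fold with GSK126 (log2 fold change 1.24, SE 0.068, adjusted p = 1.37e-07), and Fads2 rose too (log2 fold change 0.56, SE 0.058, adjusted p = 2.16e-05). With siBcat Acss2, which makes acetyl-CoA from acetate, rose (log2 fold change 0.43, SE 0.073, adjusted p = 0.000617), the elongase Elovl5 fell (log2 fold change -0.44, SE 0.069, adjusted p = 0.000319) and Acacb, a carboxylase that makes malonyl-CoA, fell (log2 fold change -0.64, SE 0.13, adjusted p = 0.00183). Without GSK126 replicate 3 the number that fell was 5. The fatty acid genes in siBcat were lower than in GSK126 for 7 of 12 (10 without GSK126 replicate 3), or 58.3% beside 21.9% of all genes. They were higher for none by edgeR, at an unadjusted p under 0.05, by DESeq2 or by limma-voom. By edgeR 19.3% of all genes were higher.

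Of 21 further genes of sterol transport, 3 rose and 4 fell with GSK126, shares of 14.3% and 19% beside 14.3% and 10.7% of all genes tested. With siBcat 5 rose and 7 fell, shares of 23.8% and 33.3% beside 17.7% and 17.5%. The 4 that fell with GSK126 became 1 without siCTL replicate 1, 2 or 3 and 2 without siBcat replicate 3, and the 5 that rose became 3 without siBcat replicate 1. Osbp, which exchanges sterol between the endoplasmic reticulum and the Golgi, rose with siBcat (log2 fold change 0.66, SE 0.054, adjusted p = 1.35e-06). Scarb2, a lysosomal membrane protein, fell with siBcat (log2 fold change -1.15, SE 0.081, adjusted p = 4.11e-07), as Npc1 did. Tmem97, a sterol-regulated binding partner of Npc1, rose with siBcat (log2 fold change 0.52, SE 0.055, adjusted p = 1.38e-05), as with GSK126 (log2 fold change 0.35, SE 0.055, adjusted p = 0.000629). With GSK126 Cav1, the main gene of caveolae, fell (log2 fold change -0.87, SE 0.088, adjusted p = 1.86e-05), and Scarb1, the receptor of high-density lipoprotein, rose (log2 fold change 0.30, SE 0.046, adjusted p = 0.000526). Of 6 other enzymes of cholesterol synthesis tested, 3 rose with GSK126, or 50% beside 14.3% of all genes. With siBcat 4 rose and 1 fell, or 66.7% and 16.7% beside 17.7% and 17.5%. There 2 rose without siCTL replicate 2 or without siBcat replicate 1 or 3.

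The machinery that degrades the reductase of the mevalonate route, 11 genes, had no called change with GSK126 (0 by edgeR and limma-voom, 1 lower by DESeq2, 2 lower at an unadjusted p under 0.05). Of all genes tested 14.3% rose and 10.7% fell with GSK126. With siBcat 5 rose (3 without siBcat replicate 1, 7 without GSK126 replicate 3), or 45.5% beside 17.7% of all genes. In the same comparison 1 fell (2 without GSK126 replicate 3), or 9.09% beside 17.5%. Ufd1l, a partner of the Vcp segregase, rose (log2 fold change 0.32, SE 0.061, adjusted p = 0.00152), and the ubiquitin ligase Rnf139 fell (log2 fold change -0.24, SE 0.051, adjusted p = 0.00245). Of 12 genes on the isoprenoid branches, 2 fell with GSK126, the methyltransferase Icmt (log2 fold change -0.18, SE 0.047, adjusted p = 0.014) and the prenyltransferase subunit Rabggtb (log2 fold change -0.26, SE 0.075, adjusted p = 0.024). These 2 are 16.7% of the list, beside 10.7% of all genes tested. The Rabggtb call was lost without siCTL replicate 1, 2 or 3 (0.0514, 0.0594 and 0.0523) or GSK126 replicate 1 or 2 (0.0641 and 0.072). With siBcat 1 rose, the dolichol-route gene Nus1 (log2 fold change 0.32, SE 0.054, adjusted p = 0.000473), a share of 8.33% beside 17.7% of all genes. Without GSK126 replicate 3 or siBcat replicate 1, 2 rose, and without GSK126 replicate 3, 2 fell.

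Markers of mature adipocytes rose with GSK126 and fell with siBcat. The 5 markers summed to 60.8 to 65.4 CPM in siCTL, 139.5 to 167.2 CPM in GSK126 and 27.4 to 28.7 CPM in siBcat, with Lep at 0 in all libraries. All 4 tested rose with GSK126: Plin1 by 4.48, Cidec by 3.03, Adipoq by 3.02 and Fabp4 by 0.79 on the log2 scale. With siBcat Adipoq (-1.60), Fabp4 (-1.18) and Cidec (-1.17) fell, the last lost without siBcat replicate 2 (0.0642), and Plin1 measured -0.27 (adjusted p = 0.508). Their part in the changes of Abca1, Srebf1, Scd1 and the other sterol genes was not tested.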

How the data were processed

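RNA-seq counts of 9 libraries were used, 3 per group. The submitters' processing notes name the tools bcl2fastq, HTSeq and TopHat2 2.0.6 and the build mm10; settings, strand handling and annotation are not stated in any source at hand. Per the file headers, each library has raw counts by gene and the authors' RPKM, beside a coding length in bases, which is not restricted to coding sequence. The authors' RPKM values were not used in tests; levels per kilobase were computed here from CPM and the coding length. All counts were even (0 odd values), as if both mates of a pair were counted, so halved counts were an alternative. Names occur more than once for 69 of the entries (26 names), none a member. A further 6 columns of per-sample values, and the ChIP-seq part of the study, were not used here.

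Groups followed the titles. In R 4.3.3, edgeR 4.0.16 was run on the deposited counts with TMM factors and a robust quasi-likelihood fit of all 9 libraries. Low counts were first filtered by filterByExpr on the groups, with its minimum count set to 10 and its minimum total to 15. This left 13240 genes tested and 10118 filtered out. Each of 3 comparisons was tested by F-test with Benjamini-Hochberg adjustment across the genes tested, threshold 0.05. The common biological coefficient of variation was 8.12%, on 6 residual degrees of freedom. A log2 fold change is given with a standard error (SE), computed as its absolute value divided by the square root of the F statistic. TMM-scaled CPM is given with its standard deviation (SD). The procedure was tested on simulated counts. Replicate numbers did not pair the libraries, so no block was used.

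The members and all lists were chosen with earlier results of these data known, so lists are given by counts and medians with no test. Members past the threshold against siCTL with an absolute log2 fold change of at least 0.4, and the 3 of each role with the smallest adjusted p, are given in every library. Up to 3 genes (siBcat) and 2 genes (GSK126) with the smallest adjusted p are named from each other list, except that of other cholesterol enzymes, which is given by counts alone. A gene that this rule selects is not reported here. Gene positions come from GENCODE M21 (GRCm38, mm10); 1 listed gene, Faxdc2, had no entry by that name.

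Alternatives were DESeq2 1.42.0, limma-voom (limma 3.58.1), other scalings and filters, only the 2 groups compared, a replicate block, halved counts, a removed loess trend on coding length (span 0.5) and each library left out in turn. Promoter searches and figures used Python 3.11.15.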

Additional observations from a re-analysis of the deposited data

How the results depend on the processing

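Under 20 alternatives no member turned direction where either fit passed the threshold. Of 640 member values per comparison, 609 (siBcat against siCTL), 620 (GSK126 against siCTL) and 587 (siBcat against GSK126) stayed on their side of the threshold; 23, 11 and 39 lost a call, and 8, 9 and 14 gained one. Calls held under every alternative for 13 of 19, 23 of 25 and 15 of 22 members. With the length trend removed, the count of all genes lower with GSK126 was 2557 in place of 1419, of members lower 4 in place of 1, of synthesis genes lower 1 in place of 0, and of all genes higher in siBcat than in GSK126 3981 in place of 2549; this alternative changes the offset of each gene by its length, and the cause was not tested further. DESeq2 gave 2 members lower with GSK126, and leaving out 1 library gave 0 to 2. Leaving out 1 library gave 5 to 9 synthesis genes lower in siBcat than in GSK126, with 9 in the full fit. No scaling moved the median of all genes by over 0.1. In the window nearest the start, the sterol element was found in 0% of member promoters in place of 2.86% and the Sp1 box in 51.4% in place of 80%; that window is shorter. Same-numbered libraries did not deviate together (correlations of -0.031 to 0.069 over 9 pairs). With a replicate block, 24 members were higher and 1 lower with GSK126, 15 higher and 4 lower with siBcat, and 6 higher and 16 lower in siBcat than in GSK126, where Tm7sf2 lost its call (0.0618), Srebf2 gained one as lower (0.0215) and 8 synthesis genes in place of 9 were lower; the count of all genes higher was 1786, 2278 and 2486 and lower 1349, 2236 and 2781. The 3 libraries per group limit the precision, and an uncalled difference is not shown to be absent.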
